A study of Mus musculus with 9 samples.

Results

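Neutrophils sorted through the same CD45+ Ly6Ghigh gate were compared between the lungs of BALB/c female mice at the macrometastatic (MACRO) stage and normal lungs without a tumor. The members were the 3 libraries titled Ly6Ghi1 to Ly6Ghi3 and the 3 titled NL1 to NL3, which is 6 of the 9 RNA-seq libraries deposited. The mice of the macrometastatic group carried 4T1-LM3 cells, which were selected for lung spread from 4T1, a mouse mammary carcinoma line, and injected into the mammary fat pad. The normal lung mice had no injection named in their labels. The other 3 libraries, of Ly6Glow neutrophils from macrometastatic lung, served for reference only. Lungs of all groups were digested with collagenase and sorted after staining for CD45, CD11b and Ly6g, so each library held the RNA of the whole gate and not of single cells. The label field naming the cell population reads the same for both Ly6Ghigh groups, and normal lung is identified by the title and by a treatment entry that names no tumor. Neither the labels nor the study's methods tell if mice were pooled for a library, and the replicates may be technical. The question of the comparison was what sets the Ly6Ghigh neutrophils of metastatic lung apart from those of a healthy lung.

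Neutrophils are short-lived leukocytes that mature in the bone marrow. They fill their granules in order: primary (azurophil) granules with myeloperoxidase and serine proteases at the promyelocyte stage, secondary (specific) granules with lactoferrin and cathelicidin at the myelocyte stage, and tertiary granules with gelatinase later. Transcripts for a granule's proteins are made while that granule forms and are mostly silenced in the mature cell. Activated neutrophils can release decondensed chromatin coated with granule proteins as neutrophil extracellular traps (NETs), and the enzyme Padi4, which citrullinates histones, takes part in this. A lung also holds epithelium, endothelium, fibroblasts and other leukocytes, whose transcripts can enter a sorted library.

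Estimated counts per library summed to 17004235 to 17841807 in the macrometastatic and to 16570344 to 17171045 in the normal lung Ly6Ghigh group. Levels are given as CPM, a gene's counts scaled to a common, TMM-adjusted library size, and TMM factors were 0.946 to 0.950 in the former and 1.30 to 1.32 in the latter. Ly6g (NCBI Gene 546644, chr15:75155261-75159128 in GRCm38), the gene of the sorted antigen, rose by 1.65 (SE 0.035) on the log2 scale from normal to macrometastatic lung. Its transcript did not separate the gates within macrometastatic lung, where Ly6Ghigh libraries had 379.8, 361 and 380.1 CPM and Ly6Glow libraries 385, 403 and 394 CPM. On the length-scaled FPKM values, S100a8 and S100a9, the subunits of calprotectin and the main cytosolic proteins of neutrophils, ranked 1 and 2 of all tested genes in the macrometastatic and 2 and 1 in the normal lung group, so neutrophil transcripts led in both groups. Among replicates, the variance of counts over that of counting noise was 1.40 to 1.51 in the macrometastatic group and 1.47 to 5.36 in the normal lung group, where replicate 2 differed most from the others.

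Of 14108 genes tested, 3712 (26.3%) were called higher and 5162 (36.6%) lower in macrometastatic lung (edgeR adjusted p no greater than 0.05 with a log2 fold change beyond 0.58 either way). The 3 values of a group did not overlap the 3 of the other in 85.2% of tested genes. The 2 directions differed in abundance. Genes called higher had medians of 46.2 and 22.2 CPM in macrometastatic and normal lung, and they held 60.1% to 60.2% of the counts of a macrometastatic library against 33.9% to 34.0% in normal lung. Genes called lower had medians of 1.84 and 6.91 CPM, and 58.9% of them were under 10 CPM even in normal lung. The latter held 5.81% to 5.84% of the counts in macrometastatic and 21.7% to 21.8% in normal lung libraries. Values written after rose or fell are log2 fold changes of macrometastatic over normal lung, and both verbs are kept for genes that were called. Decreases were larger, in that 2206 genes were over 4-fold lower and 287 over 4-fold higher.

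**Figure D1:**
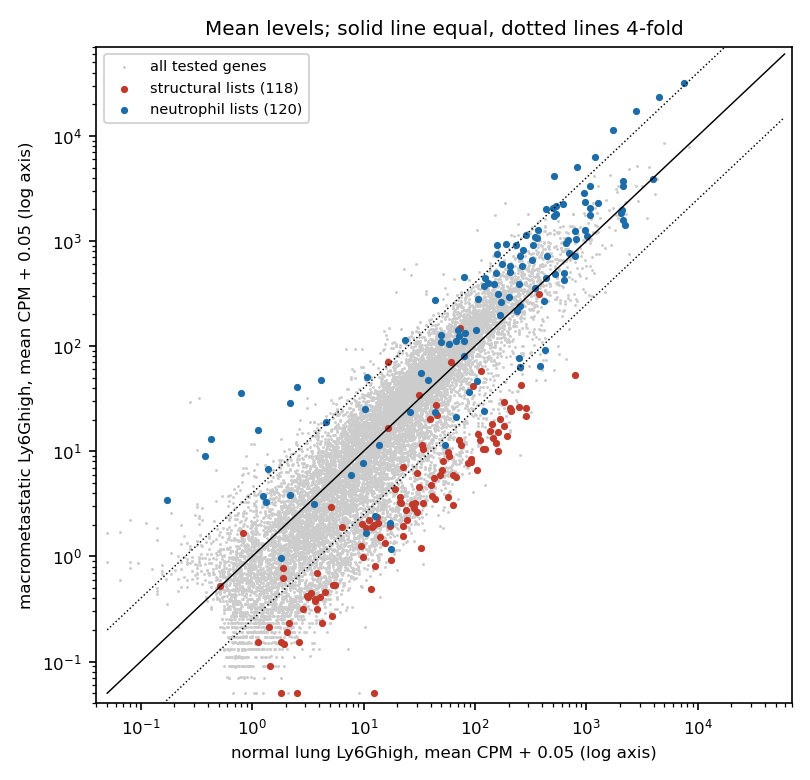
Mean CPM + 0.05 of each tested gene in normal lung (horizontal, log axis) and macrometastatic (vertical, log axis) Ly6Ghigh libraries, n = 3 each, with genes of the neutrophil lists in blue and of the lung structural cell lists in red. Most of the 118 structural genes lie below the lower dotted line of 4-fold difference, while most of the 120 neutrophil genes lie above the line of equal levels.

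To separate likely neutrophil transcripts from those of other lung cells, genes were grouped by hand-written lists into neutrophil, structural (epithelium, endothelium, fibroblast, muscle, fat), other leukocyte and general program classes. Of 120 neutrophil genes tested, 74 were called higher (61.7%, against 26.3% of all genes) and 17 lower, with a median log2 fold change of 0.90. Of 118 structural genes, 3 were called higher, 110 lower (93.2%, against 36.6% of all genes) and 5 neither, with a median of -3.12 and quartiles of -3.54 to -2.54. Of 128 genes of other leukocytes, 20 were called higher and 87 lower (68.0%), with a median of -1.18. The median over all tested genes was -0.09. The shares of all genes, 26.3% called higher and 36.6% called lower, are the reference for the counts of every list below. Neutrophil list genes summed to 174800 to 177700 CPM in macrometastatic and 63520 to 65160 CPM in normal lung libraries. Structural genes summed to 1577 to 1610 CPM and 7540 to 7911 CPM. On the TMM-adjusted sizes all tested genes summed to 1052000 to 1058000 CPM and 755500 to 770600 CPM. Structural genes were thus a small share of the counts in both. In bulk libraries, fewer cells of a type and less RNA per cell cannot be told apart.

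**Figure D2:**
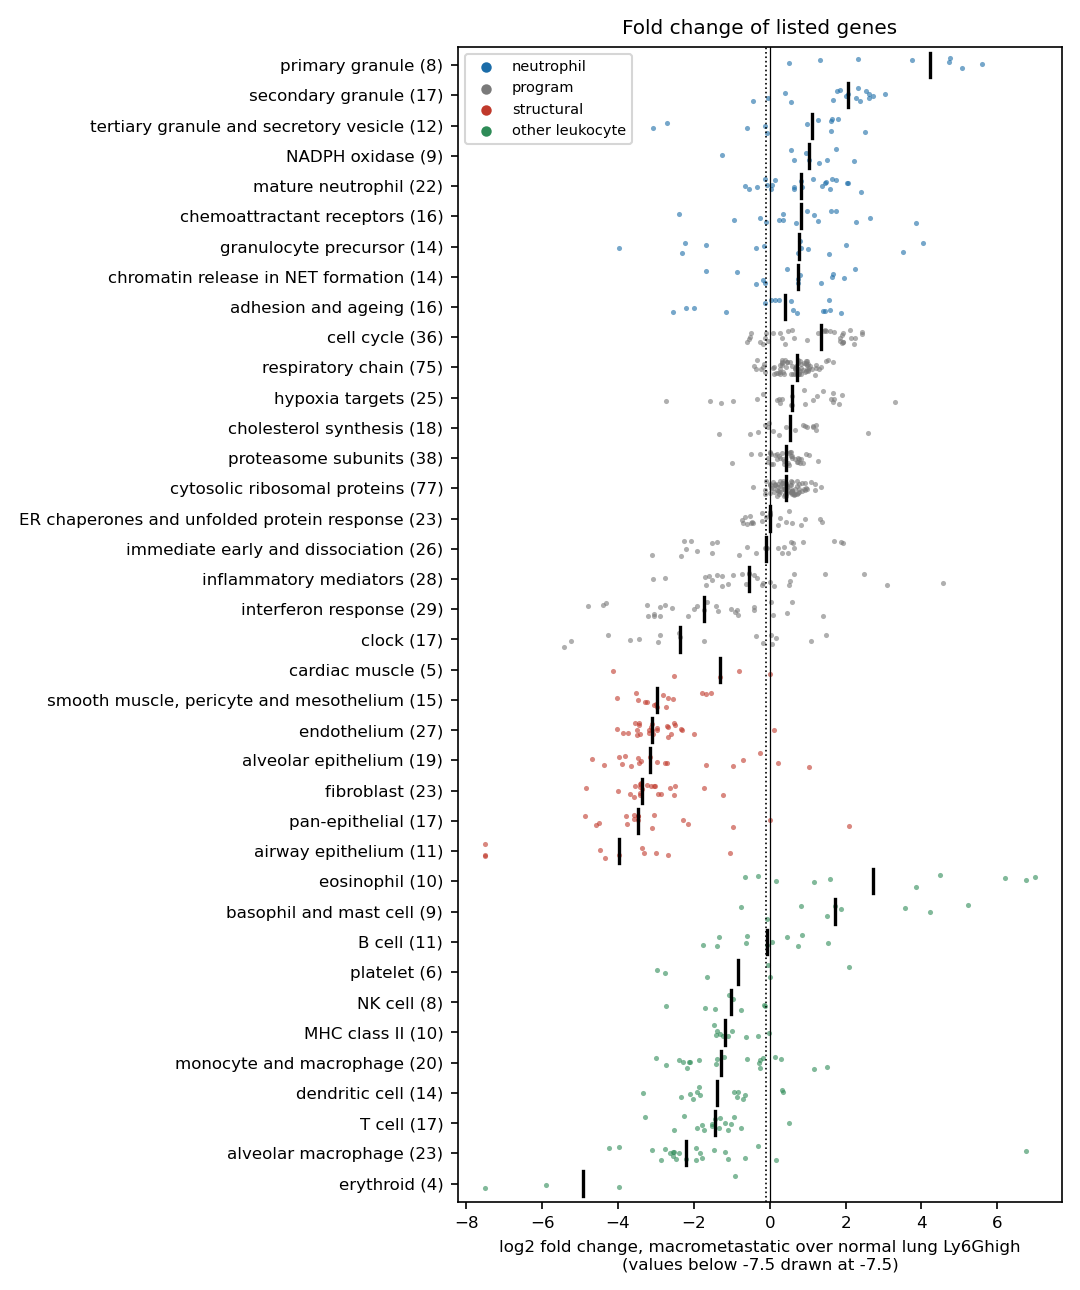
Log2 fold change of each listed gene, macrometastatic over normal lung Ly6Ghigh, with a line for each list and the number of tested genes in brackets; black bars are list medians and the dotted line is the median of all tested genes. Median changes run from 4.23 for primary granule genes to -3.98 for airway epithelium among the neutrophil and structural lists.

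Primary granule genes had the largest median increase of all lists, 4.23. Of the 8 tested, 7 were called higher (87.5%, against 26.3% of all genes) and none lower. The groups did not overlap in any of the 8, as in 85.2% of all genes. Prtn3 (NCBI Gene 19152, chr10:79879667-79883174), which encodes the serine protease proteinase 3, had 35.7, 35.5 and 37 CPM in the macrometastatic and 0.898, 0.593 and 0.721 CPM in the normal lung libraries. Elane (NCBI Gene 50701, chr10:79886312-79888216), its neighbor on the chromosome and the gene of neutrophil elastase, had 8.67, 8.74 and 9.78 CPM and 0.404, 0.228 and 0.361 CPM. Ms4a3 (NCBI Gene 170813, chr19:11629499-11640851), a membrane protein gene that marks granulocyte-monocyte progenitors, had 13.1, 13.5 and 12.2 CPM and 0.584, 0.319 and 0.225 CPM. In each of these, every macrometastatic library lay more than 10-fold above every normal lung library, while the normal lung values were under 1 CPM. The log2 fold changes were 5.60 (SE 0.12, edgeR adjusted p = 1.29e-20) for Prtn3, 4.74 (SE 0.22, edgeR adjusted p = 6.32e-15) for Elane and 5.07 (SE 0.19, edgeR adjusted p = 1.17e-16) for Ms4a3. Mpo, the gene of myeloperoxidase, rose from 2.15 ± 0.441 to 28.8 ± 1.47 CPM (mean ± SD, n = 3 in all such pairs). Cd63, the most abundant member and a lysosomal membrane protein of many cell types, had 113 ± 1.86 against 79.3 ± 4.12 CPM, a log2 fold change of 0.51 that was under the threshold. All told the list held 211 to 214 CPM in macrometastatic Ly6Ghigh libraries, 97 to 114 CPM in macrometastatic Ly6Glow libraries and 79.8 to 89.2 CPM in normal lung. Most of each sum was Cd63, with means of 113, 81.8 and 79.3 CPM in these groups.

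Of the 14 granulocyte precursor genes, 8 were called higher and 4 lower. Cebpe, a transcription factor required for terminal granulocyte differentiation, had 46.9, 48.5 and 46.8 CPM in macrometastatic and 4.36, 3.42 and 4.6 CPM in normal lung libraries (log2 fold change 3.52 (SE 0.089)). Fcnb, the gene of ficolin B made in immature myeloid cells, rose by 4.04 (SE 0.099). Hmgn2, a chromatin protein gene and the most abundant member, rose from 287 ± 4.78 to 1152 ± 18.3 CPM. The 4 members called lower were Sox4 (-3.97) and, chosen after their values were seen, Irf8 (-2.33), Cd34 (-2.23) and Cebpa (-1.68). Of these, Irf8 drives the monocyte and dendritic cell lineages, Cd34 is expressed in endothelium as well as in stem cells, and Cebpa acts earlier than Cebpe in granulocytes and also in lung epithelium. The list therefore did not move in a single direction.

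Secondary granule genes rose broadly, with 13 of 17 called higher, none lower and a median of 2.06. Ngp, a cathelin-related granule protein gene and the most abundant member, had 17289.5, 17092 and 17207 CPM in macrometastatic and 2813, 2701 and 2851 CPM in normal lung libraries. Ltf, the gene of lactoferrin, had 11598, 11399 and 11334 CPM and 1788, 1687 and 1749.6 CPM. Cd177, a surface protein that pairs with the proteinase 3 protein, had 4248, 4131 and 4107 CPM and 532, 475 and 516 CPM. These 3 genes were over 6-fold higher in macrometastatic lung, with log2 fold changes of 2.62 (SE 0.028, edgeR adjusted p = 3.44e-25), 2.72 (SE 0.029, edgeR adjusted p = 2.56e-25) and 3.04 (SE 0.038, edgeR adjusted p = 2.62e-24) for Ngp, Ltf and Cd177. Camp, chosen after its values were seen because it encodes the cathelicidin of this model, had 955, 928 and 919.6 CPM and 198, 177 and 189 CPM (log2 fold change 2.31 (SE 0.039)). The summed level of the list was 59460 to 60550 CPM in macrometastatic and 16170 to 16830 CPM in normal lung libraries. Among the 4 members not called, Lyz2, a lysozyme gene shared with macrophages and chosen after its values were seen, had 3873 against 3965 CPM.

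C/EBP factors drive the specific granule genes, so the proximal promoters were searched for the letters TTGCNNAA on both strands, where N is any base. Of the 14 secondary granule genes matched to RefSeq promoters (250 bases before to 50 after the start, GRCm38.p6), 6 held a match (42.9%), against 10.7% of the 11098 tested genes with a promoter and 12.2% of all 27025 genes with one. The promoters of Ltf and Ngp are shown, since these 2 genes had the highest counts among the members that rose. Matches are in capitals, and a match is a string of letters and not a measured binding site.
Ltf (chr9:111019042-111019341, plus strand): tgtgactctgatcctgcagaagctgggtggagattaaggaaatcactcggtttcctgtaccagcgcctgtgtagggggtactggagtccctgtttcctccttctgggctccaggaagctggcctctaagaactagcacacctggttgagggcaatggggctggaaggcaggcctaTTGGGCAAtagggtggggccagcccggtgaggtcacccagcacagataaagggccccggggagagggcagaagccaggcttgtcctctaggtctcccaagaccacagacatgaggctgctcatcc
Ngp (chr9:110419558-110419857, plus strand): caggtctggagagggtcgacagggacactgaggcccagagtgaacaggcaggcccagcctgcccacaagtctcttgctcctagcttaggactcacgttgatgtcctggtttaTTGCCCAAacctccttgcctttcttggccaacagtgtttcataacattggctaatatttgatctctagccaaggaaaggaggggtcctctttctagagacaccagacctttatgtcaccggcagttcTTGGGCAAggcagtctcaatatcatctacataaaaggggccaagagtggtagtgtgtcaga
The window of Ngp held 2 matches and that of Ltf 1.

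Later granule and mature neutrophil genes rose less. Of the 12 tertiary granule and secretory vesicle genes, 7 were called higher and 3 lower, with a median of 1.13. Mmp9, the gene of gelatinase B, rose from 1069 ± 64.8 to 3315 ± 49.1 CPM, and Wfdc21, which encodes a small protease inhibitor-like protein, by 2.52 (SE 0.045). Alpl and Dysf, for alkaline phosphatase and the membrane repair protein dysferlin, fell (-2.70 and -3.09 on the log2 scale) from levels of 10.6 and 17.3 CPM, and both are also expressed outside neutrophils. Of 22 mature neutrophil genes, 14 were called higher and 1 lower, with a median of 0.83. S100a8 had 23470.2, 23278 and 23965 CPM in macrometastatic and 4408, 4670 and 4356 CPM in normal lung libraries. S100a9 had 32680.4, 31091 and 31229 CPM and 7562, 7632 and 7495 CPM. Pygl, the gene of liver glycogen phosphorylase, rose by 2.03 (SE 0.028). At the other end of the list, and chosen after their values were seen, Hdc (-0.06), G0s2 (-0.34) and Clec4d (-0.56), for histidine decarboxylase, a lipolysis inhibitor and a C-type lectin, were not called, and Trem1 (-0.66), for an activating receptor of myeloid cells, was the member called lower. In mean FPKM, Hdc, G0s2 and Clec4d had 802, 597 and 314 in macrometastatic against 1156, 1042 and 638 in normal lung libraries.

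**Figure D3:**
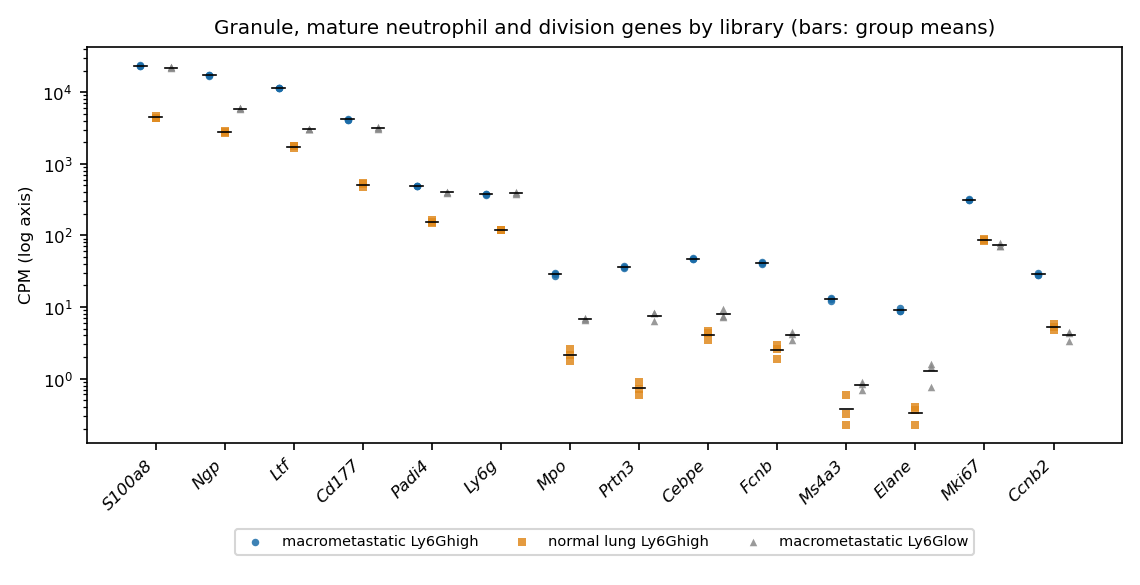
CPM (log axis) of 14 granule, mature neutrophil and division genes in each library of the 3 groups; bars are group means, n = 3. For all 14 genes the macrometastatic Ly6Ghigh libraries (blue) lie above the normal lung libraries (orange), while Ly6Glow libraries (grey) lie near the Ly6Ghigh level for S100a8, Padi4 and Ly6g and below it for Prtn3, Ms4a3, Elane and the division genes.

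Genes of the oxidative burst and of NET formation showed increases of moderate size. Of 9 NADPH oxidase genes, 7 were called higher and 1 lower. Ncf1, for the cytosolic p47phox subunit, rose by 2.22 (SE 0.029), Rac2, for the small GTPase of the complex, by 1.75 (SE 0.041), and Cybb, for the catalytic membrane subunit, by 0.95 (SE 0.030), which fell under the threshold with library totals (0.49). Of 14 genes linked to chromatin release, 8 were called higher and 2 lower, with a median of 0.75. Padi4 (NCBI Gene 18602, chr4:140745508-140774239) had 496, 496 and 489 CPM in macrometastatic and 163, 148 and 153 CPM in normal lung libraries (log2 fold change 1.68 (SE 0.036, edgeR adjusted p = 1.18e-20)), and no value of either group overlapped the other. Hmgb2, for a chromatin-bound high mobility group protein, rose by 2.24 (SE 0.038) and Lbr, for the lamin B receptor that shapes the lobed nucleus, by 1.95 (SE 0.034). Lmnb1, for the nuclear lamin that is cleaved or phosphorylated when traps form, had 724 against 787 CPM and was not called. Padi4 is a gene of mature neutrophils, and its increase was close to that of Ly6g (1.65) and smaller than those of S100a9 (2.07) and Prtn3. It was above the median (0.83) and the upper quartile (1.57) of the mature neutrophil list.

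Of 16 chemoattractant receptor genes, 9 were called higher and 2 lower. Cxcr2, the receptor for the CXCL chemokines that call neutrophils from the marrow, had 1731, 1723 and 1694 CPM in macrometastatic and 509, 529.6 and 509 CPM in normal lung libraries (log2 fold change 1.73 (SE 0.030)). Ltb4r1, the leukotriene B4 receptor gene, rose by 2.63 (SE 0.048). Cx3cr1, a fractalkine receptor of nonclassical monocytes and macrophages, fell by 2.38 on the log2 scale, to a level of 2.39 CPM. Of 16 adhesion and ageing genes, 7 were called higher and 4 lower, and the median (0.40) changed sign to -0.06 when libraries were scaled by their totals. Its largest decreases were those of Itgax (-2.55), Icam1 (-2.20) and Pecam1 (-2.01), for the integrin CD11c, the adhesion molecule ICAM-1 and PECAM-1, which alveolar macrophages or endothelium express abundantly. Cd44, the most abundant of them and a hyaluronan receptor gene, had 1866 against 2051 CPM and was not called. Its mean FPKM was 408 in macrometastatic against 619 in normal lung libraries.

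Cell division genes were higher in macrometastatic lung, with 22 of 36 called higher and 1 lower and a median of 1.35. Mki67, for the proliferation antigen Ki-67 and the most abundant, had 313, 315 and 320.3 CPM in macrometastatic and 84.1, 90.4 and 87.6 CPM in normal lung libraries (log2 fold change 1.86 (SE 0.040)). Ccnb2, for a mitotic cyclin, had 27.9, 30 and 28.1 CPM and 5.7, 4.79 and 5.32 CPM. Aurka and Plk1, for kinases of the mitotic spindle, rose by 2.42 (SE 0.093) and 2.25 (SE 0.12). With TMM scaling, members that act in DNA replication moved less, and the following were chosen after their values were seen. The sliding clamp gene Pcna (-0.05) and the helicase genes Mcm3 (-0.54), Mcm6 (-0.51), Mcm7 (-0.19), Mcm5 (0.48) and Mcm4 (0.39, or -0.07 with library totals) were not called, and Mcm2 (-0.59), a further helicase gene at the threshold, was the member called lower. Its call was lost without macrometastatic replicate 1 (-0.54) or normal lung replicate 3 (-0.56). In mean FPKM, Mcm2, Mcm3, Mcm6 and Mcm7 had 2.75, 4.59, 3.60 and 6.62 in macrometastatic against 5.71, 9.11, 7.18 and 10.3 in normal lung. Mcm4, Mcm5 and Pcna had 9.14, 5.93 and 41.9 against 9.61, 5.86 and 59.9.

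Genes of secreted inflammatory mediators did not move together. Of 28, 5 were called higher, 13 lower and 10 neither, with a median of -0.55. Saa3, an acute-phase serum amyloid A gene, had 559, 535 and 518 CPM in macrometastatic and 22.1, 24 and 22.3 CPM in normal lung libraries (log2 fold change 4.56 (SE 0.047, edgeR adjusted p = 2.56e-25)). Nos2, the gene of inducible nitric oxide synthase, had 321, 313 and 306 CPM and 37.1, 35.8 and 36.8 CPM (log2 fold change 3.10 (SE 0.039)). Cxcl16, for a membrane-bound chemokine of macrophages and endothelium, fell by 3.09. Il1b, the interleukin-1 beta gene and the most abundant member, had 2827, 2833 and 2736 CPM in macrometastatic and 4105, 4045 and 4129.6 CPM in normal lung libraries. The groups were apart, but with TMM the log2 fold change (-0.55) was under the threshold. Its mean FPKM was 2027 in macrometastatic against 4087 in normal lung libraries. Acod1, Ptgs2 and Cd274, chosen after their values were seen, for the itaconate-making enzyme, cyclooxygenase-2 and PD-L1, had log2 fold changes of -1.71, -1.60 and -1.69 and were called lower.

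Interferon-stimulated genes were lower in macrometastatic lung. They are switched on by type I and II interferons through transcription factors that bind interferon-stimulated response elements (ISRE). Of 29 tested, 22 were called lower (36.6% of all genes were) and 2 higher, with a median of -1.73. Rsad2 (NCBI Gene 58185), for the antiviral enzyme viperin, had 8.06, 9.27 and 9.9 CPM in macrometastatic and 241, 261 and 256 CPM in normal lung libraries. Ifit3 and Ifit3b, near-identical genes for proteins that restrict viral RNA, had 1.23, 1.71 and 2.29 CPM and 1.66, 1.36 and 0.99 CPM in macrometastatic against 36.6, 35.5 and 32.9 CPM and 27, 28.8 and 28.8 CPM in normal lung libraries, and their reads may be shared. Log2 fold changes were -4.80 (SE 0.060, edgeR adjusted p = 2.59e-24) for Rsad2 and -4.32 (SE 0.12, edgeR adjusted p = 9.02e-19) for Ifit3. Ifit1, chosen after its values were seen, fell by 3.21. The exceptions included the most abundant member, Slfn4 of the Schlafen family, with 5052 against 3654 CPM and no call. They also included Ifitm3, for a membrane protein that blocks viral entry, which was called higher (1.41) and was chosen after its values were seen. Because Slfn4 dominated it, the summed level of the list was alike, 7160 to 7243 CPM in macrometastatic and 7231 to 7459 CPM in normal lung libraries.

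The promoters of interferon-stimulated genes were searched for the core of the ISRE, GAAA, any 2 bases and GAAA, on both strands. Of the 22 list members matched to RefSeq promoters, 13 held it (59.1%). Of the 18 matched members called lower 10 did (55.6%), which was no greater a share than in the list as a whole. The share was 3.93% of tested genes with a promoter and 3.99% of all genes with one. The windows of Rsad2, Ifit3 and Ifit1 are shown because they were among the members that fell most, with the matches in capitals. For each the first listed window with a match is printed, and that of Ifit3 lies within its gene, which starts at position 34583119.
Rsad2 (chr12:26456403-26456702, minus strand): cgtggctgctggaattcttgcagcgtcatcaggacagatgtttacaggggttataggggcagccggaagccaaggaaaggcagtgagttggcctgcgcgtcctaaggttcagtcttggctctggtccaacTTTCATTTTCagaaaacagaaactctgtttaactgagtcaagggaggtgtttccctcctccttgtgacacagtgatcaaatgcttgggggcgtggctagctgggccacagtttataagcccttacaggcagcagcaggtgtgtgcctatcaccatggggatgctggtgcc
Ifit3 (chr19:34583279-34583578, plus strand): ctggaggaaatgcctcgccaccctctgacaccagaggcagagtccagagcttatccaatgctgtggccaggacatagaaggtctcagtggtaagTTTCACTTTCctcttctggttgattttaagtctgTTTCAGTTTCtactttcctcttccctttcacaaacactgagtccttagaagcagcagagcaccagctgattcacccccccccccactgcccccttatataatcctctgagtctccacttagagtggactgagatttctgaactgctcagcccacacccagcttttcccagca
Ifit1 (chr19:34640639-34640938, plus strand): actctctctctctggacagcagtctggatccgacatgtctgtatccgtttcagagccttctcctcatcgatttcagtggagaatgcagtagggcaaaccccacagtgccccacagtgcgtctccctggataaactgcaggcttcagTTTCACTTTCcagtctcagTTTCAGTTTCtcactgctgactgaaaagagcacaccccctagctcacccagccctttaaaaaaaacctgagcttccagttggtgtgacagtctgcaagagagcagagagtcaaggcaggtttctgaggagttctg
Ifit3 and Ifit1 lie on the same chromosome, and the window of each held 2 matches while that of Rsad2 held 1. A match says that these letters are present and not that a factor was bound.

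Clock genes split. Of 17 tested, 10 were called lower, 2 higher and 5 neither, with a median of -2.37. Those that fell most were output genes and repressors driven by the CLOCK and BMAL1 proteins through E-boxes. Nr1d1, for the repressor REV-ERB alpha, had 0.554, 0.767 and 1.05 CPM in macrometastatic and 34.4, 32.1 and 36.2 CPM in normal lung libraries. Nr1d2, for its relative REV-ERB beta, had 2.65, 2.36 and 3.16 CPM and 47.6, 56.4 and 51.8 CPM. Dbp, for a PAR-domain transcription factor, had 0.246, 0.531 and 0.309 CPM and 15.6, 12.7 and 13.9 CPM. No values overlapped in these 3 genes, and their log2 fold changes were -5.42 (SE 0.13, edgeR adjusted p = 6.34e-20), -4.25 (SE 0.10, edgeR adjusted p = 6.43e-20) and -5.24 (SE 0.22, edgeR adjusted p = 9.89e-16). The most abundant member, the period gene Per1, had 325 against 292 CPM and was not called, with a log2 fold change of 0.15 that turned to -0.31 with library totals. The repressor gene Per2, chosen after its values were seen, was not called either (0.05, or -0.41 with library totals). Chosen after their values were seen, Arntl (-0.19) and Clock (-0.36), which encode the activators themselves, were not called. Nfil3, for a factor that opposes DBP, was called higher (1.48) and was also chosen after its values were seen. The E-box letters CACGTG stood in the promoter windows of 5 of the 15 clock genes matched (33.3%) and of 2 of the 9 matched members called lower (22.2%), against 11.2% of tested genes with a promoter. The time of day at which the lungs were taken is not given in the sources used here, and its part in these values cannot be told apart from the tissue.

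Immediate early genes, which neutrophils and other cells switch on within minutes of stimulation or of tissue digestion, moved in both directions. Of 26, 6 were called higher and 11 lower, with a median (-0.11) near that of all genes. The nuclear receptor gene Nr4a3 had 59.1, 59.6 and 57.9 CPM in macrometastatic and 512, 519 and 500.1 CPM in normal lung libraries (log2 fold change -3.12 (SE 0.040)). Its relative Nr4a2 and the AP-1 gene Fosb fell (-2.34 and -2.26). The most abundant member, the AP-1 gene Junb, had 1669 against 1324 CPM and was not called (0.33, or -0.13 with library totals). Klf2, Hspa1a and Hspa1b, chosen after their values were seen, for a quiescence factor and 2 near-identical heat shock proteins whose reads may be shared, were called higher (1.93, 1.70 and 1.87). Digestion was described in the same terms for all lungs, and its part in these values was not tested.

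Of 25 hypoxia target genes, 13 were called higher and 4 lower. Egln3, for an oxygen-sensing prolyl hydroxylase, had 99.5, 93.4 and 88.6 CPM in macrometastatic and 8.62, 9.81 and 10.2 CPM in normal lung libraries (log2 fold change 3.30 (SE 0.063)). The glycolytic genes Eno1 and Aldoa, for enolase and aldolase, rose by 1.91 (SE 0.041) and 1.68 (SE 0.044). Members that do not encode glycolytic enzymes included decreases, such as that of the angiogenic factor gene Vegfa (-0.97), chosen after its values were seen. Of 18 cholesterol synthesis genes, 9 were called higher and 1 lower. Fdps, for farnesyl diphosphate synthase, had 88, 82.1 and 85.2 CPM in macrometastatic and 14.2, 13.7 and 14.2 CPM in normal lung libraries, and Dhcr7, for the reductase of the last step, was the member called lower (-1.33).

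Large housekeeping families had small median differences that depended on the scaling. Of 75 respiratory chain genes 47 were called higher and none lower, with a median of 0.72, and Ndufv3, for a subunit of complex I, rose by 1.66 (SE 0.079). Of 77 cytosolic ribosomal protein genes 29 were called higher and none lower, with a median of 0.43, and Rps9, of the small subunit, rose by 1.35 (SE 0.034). Of 38 proteasome genes 13 were called higher and 1 lower, with a median of 0.43. Of 23 genes of ER chaperones and the unfolded protein response 4 were called higher, 4 lower and 15 neither, with Xbp1, for its transcription factor, higher by 1.37 (SE 0.035). The most abundant members of 3 of these families were not called and changed sign with library totals, from 0.11 to -0.36 for the ATP synthase gene Atp5b, from 0.28 to -0.18 for the proteasome gene Psmd2 and from 0.01 to -0.45 for Hspa5, which encodes the chaperone BiP. The choice of scaling shifted all genes together. The median of all tested genes moved from -0.09 with TMM to -0.28 with upper-quartile scaling and to -0.55 with library totals. With library totals the median turned to -0.04 for ribosomal proteins and to -0.04 for proteasome genes, with 4 and 1 members called higher, and that of the respiratory chain to 0.25 with 10. Relative to the median of all genes, the TMM medians of these 3 families were 0.51, 0.52 and 0.80.

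**Figure D4:**
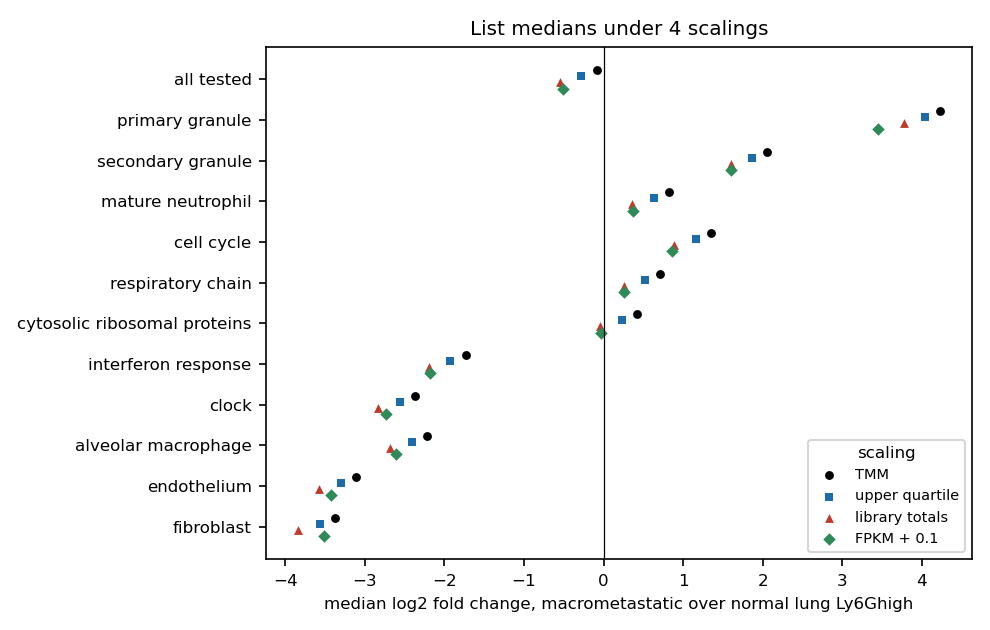
Median log2 fold change, macrometastatic over normal lung Ly6Ghigh, of all tested genes and of 11 lists under 4 scalings: TMM, upper quartile, library totals and limma on log2(FPKM + 0.1). All scalings move the medians the same way; primary and secondary granule genes stay above 0, endothelium and fibroblast genes stay below it, and ribosomal protein genes change sign.

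Transcripts of lung epithelium were lower in macrometastatic libraries. Of 19 alveolar epithelium genes, 16 were called lower and 1 higher, with a median of -3.15. Sftpc (NCBI Gene 20389), for surfactant protein C of alveolar type 2 cells, had 52.8, 55.3 and 51.8 CPM in macrometastatic and 819.6, 732 and 815 CPM in normal lung libraries (log2 fold change -3.89 (SE 0.048, edgeR adjusted p = 2.54e-24)). Cldn18, for a tight junction protein, had 2.65, 3.78 and 2.66 CPM and 63.1, 62.6 and 65 CPM. Aqp5, for the water channel of type 1 cells, had 0.308, 0.531 and 0.495 CPM and 12, 10.7 and 12.3 CPM. The macrometastatic levels were low but not at 0. The members that did not fall included Napsa (1.05), for the aspartic protease napsin A and called higher except on log2(FPKM + 1), Hopx (0.22, or -0.25 with library totals), for a factor of type 1 cells, and Lyz1, with 313 against 375 CPM. All 3 were chosen after their values were seen, and the last 2 were not called. Lyz1 is nearly identical to the myeloid Lyz2, so its reads may be shared. All 11 airway epithelium genes tested were called lower, with a median of -3.98. Sec14l3, a lipid-binding protein gene of ciliated cells and the most abundant member, had 6.58, 7.44 and 5.94 CPM and 103, 104 and 108 CPM. Bpifa1 (NCBI Gene 18843), for a secreted airway protein, had 0 counts in each macrometastatic library and 12.8, 13.9 and 10.4 CPM in normal lung, at least 67.8-fold lower against a floor of 3 counts per library.

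Of 17 pan-epithelial genes, 15 were called lower and 1 higher. Krt18 had 1.35, 1.24 and 1.3 CPM in macrometastatic and 15.7, 15.6 and 15.2 CPM in normal lung libraries, and the keratin genes Krt8 and Krt19 fell (-3.58 and -3.47). These keratins and Krt18 are shared by lung epithelium and mammary carcinoma cells.

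Endothelial and mesenchymal transcripts fell by similar amounts. Of 27 endothelium genes, 26 were called lower and none higher, with a median of -3.11 and quartiles of -3.44 to -2.64. Kdr, for the VEGF receptor 2, had 9.23, 10.7 and 9.84 CPM in macrometastatic and 164, 159 and 161 CPM in normal lung libraries (log2 fold change -4.02 (SE 0.057, edgeR adjusted p = 1.62e-23)). Ptprb, for the vascular endothelial protein tyrosine phosphatase, had 22.8, 21.7 and 20.7 CPM and 283, 295 and 289.9 CPM. All 23 fibroblast genes were called lower, with a median of -3.38 and quartiles of -3.43 to -2.91. Col1a2, for a chain of type I collagen, had 12.9, 10.6 and 12.5 CPM and 155, 147 and 156 CPM (log2 fold change -3.67 (SE 0.061)). Sparc, for a matrix glycoprotein and the most abundant, fell from 249 ± 10 to 26.3 ± 1.29 CPM. All 15 smooth muscle, pericyte and mesothelium genes were called lower, with a median of -2.97, and the values of Pdgfrb, for the PDGF receptor of pericytes, and Acta2, for smooth muscle actin, were -3.48 and -1.56. Of 5 cardiac muscle genes 4 were called lower, and of the adipocyte genes Retn was tested, at 1.61 against 0.783 CPM, and called higher except with library totals or on log2(FPKM + 1).

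The summed level of endothelium genes was 341 to 347 CPM in macrometastatic and 2436 to 2539 CPM in normal lung libraries, and that of fibroblast genes 260.4 to 263 CPM and 1967 to 2073 CPM. Alveolar epithelium genes without Lyz1 summed to 451 to 464 CPM and 2019 to 2157 CPM. Taken over all structural genes without Lyz1, the normal lung level was 5.78 times the macrometastatic level. These levels and the decreases given above had the same direction between normal lung and macrometastatic Ly6Ghigh libraries. Structural genes without Lyz1 summed to 1264 to 1288 CPM in macrometastatic Ly6Ghigh and 1340 to 1360 CPM in Ly6Glow libraries. Acod1, Ptgs2 and Trem1 differed more, with 744, 270 and 1412 CPM in macrometastatic Ly6Ghigh and 2328, 658 and 2910 CPM in Ly6Glow. Pecam1, Icam1 and Alpl differed less, with 63.2, 92.2 and 1.62 CPM against 84.2, 106 and 1.27 CPM. Alpl had 28 counts or fewer in each macrometastatic Ly6Ghigh library. Of other decreases named above, Itgax, Irf8 and Cebpa had 65.3, 23.9 and 21.0 CPM against 44.6, 12.3 and 10.6 CPM in Ly6Glow. All are examples and do not stand for their lists. The part of these levels in decreases of genes that lung cells and neutrophils share, such as Pecam1, Icam1 and Alpl, was not tested.

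**Figure D5:**
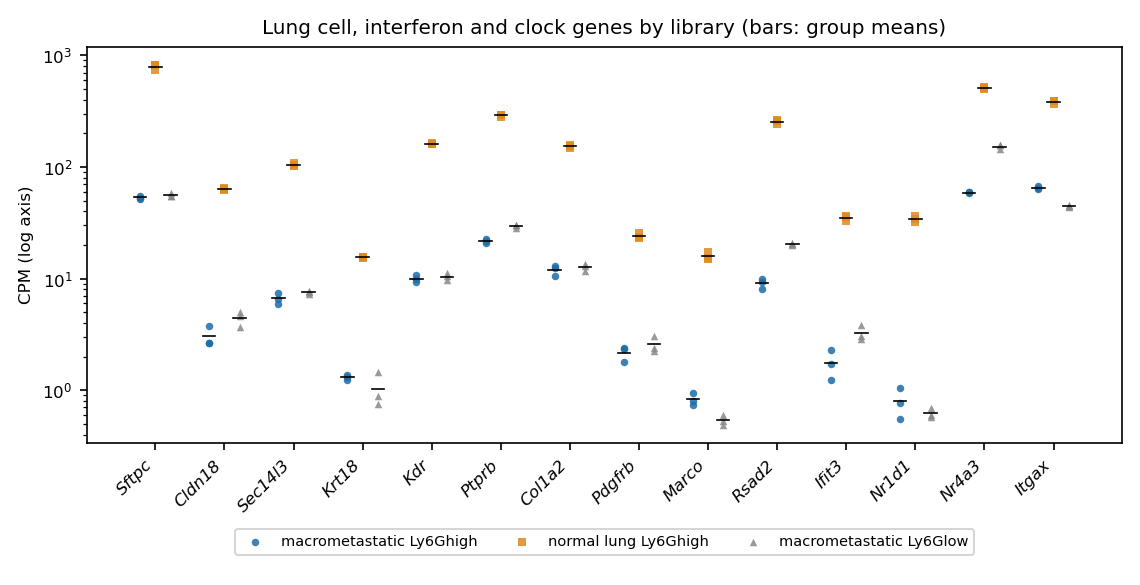
CPM (log axis) of 14 genes in each library of the 3 groups; bars are group means, n = 3. For all 14 genes the normal lung libraries (orange) lie above the macrometastatic Ly6Ghigh libraries (blue), and the Ly6Glow libraries (grey) lie near the latter for the epithelial, endothelial and fibroblast genes.

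Other leukocytes gave 2 patterns. Macrophage and lymphocyte genes were lower in macrometastatic lung. Of 23 alveolar macrophage genes, 20 were called lower and 1 higher, with a median of -2.22. Marco, for a scavenger receptor, had 0.738, 0.945 and 0.805 CPM in macrometastatic and 15.3, 14.9 and 17.1 CPM in normal lung libraries, and Mrc1, for the mannose receptor and the most abundant, had 120.3, 116 and 119 CPM and 416, 444 and 425 CPM. Of 20 monocyte and macrophage genes 12 were called lower and 2 higher, among them Mertk, for a receptor of apoptotic cell uptake, which fell by 2.99, and Ace (-2.75), for angiotensin-converting enzyme and abundant in lung endothelium too. Dendritic cell genes were called lower in 12 of 14, MHC class II genes in 8 of 10, T cell genes in 16 of 17 and NK cell genes in 6 of 8, with none higher in any of these 4 lists. Cd74, for the invariant chain of MHC class II, had 353, 352 and 337 CPM and 1003, 843 and 957 CPM. Tcf7, for a transcription factor of naive T cells, fell by 2.51, whereas Cd3d, for a T cell receptor chain and the most abundant, had 24.6 against 17.2 CPM and was not called. B cell genes split, with 3 called higher and 5 lower of 11, Ms4a1 (CD20) at 1.53 and Cd22 at -1.38. All 4 erythroid genes tested were called lower, and Hbb-b1, of the beta globin cluster with its near-identical copies, had 0.123, 0.177 and 0.186 CPM against 10.3, 10.1 and 10 CPM. Of 6 platelet genes 3 were called lower and 1 higher, and the most abundant, the integrin gene Itga2b, had 6.08 against 6.3 CPM and was not called.

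Granulocyte genes of other kinds were higher. Of 10 eosinophil genes, 7 were called higher and 1 lower, with a median of 2.73. Prg2, for the major basic protein, had 29.6, 30.5 and 28.2 CPM in macrometastatic and 0.225, 0.274 and 0.18 CPM in normal lung libraries. Ear6, a ribonuclease gene with close relatives whose reads may be shared, had 33.8, 31.3 and 30.7 CPM and 0.225, 0.319 and 0.315 CPM. Ccr3, the eotaxin receptor gene, had 16.2, 16.7 and 14.6 CPM and 1.08, 1.51 and 0.676 CPM. In contrast Ear2, the most abundant member and shared with alveolar macrophages, was called lower (-0.64), and Siglecf, chosen after its values were seen and the usual surface marker of eosinophils and alveolar macrophages, was not called (-0.30). Of 9 basophil and mast cell genes, 7 were called higher and 1 lower. Prss34 and Mcpt8, for basophil serine proteases, had 9.66, 10.9 and 10.5 CPM and 13.5, 11.2 and 10.4 CPM in macrometastatic against 0.359, 0.228 and 0.225 CPM and 0.943, 1.1 and 0.901 CPM in normal lung libraries. The summed level of the eosinophil list was 277 to 295 CPM in macrometastatic Ly6Ghigh libraries, 209.9 to 216 CPM in normal lung and 48.4 to 49.3 CPM in Ly6Glow libraries. Like that of the primary granule list it was highest in the macrometastatic Ly6Ghigh group, but the other 2 groups stood in the opposite order. Ear2 had 71.1 CPM in macrometastatic Ly6Ghigh, 111 CPM in normal lung and 4.44 CPM in Ly6Glow libraries. In contrast, Prg2, Ear6 and Ccr3 had 0.619, 0.411 and 3.72 CPM in Ly6Glow against 0.226, 0.286 and 1.09 CPM in normal lung libraries. Prg2 and Ear6 ranked 1 and 2 among increases under the naming rule given below. Whether other granulocytes had a part in the primary granule values was not tested.

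Some of the largest changes fell outside the lists. Lipg, for endothelial lipase, had 603, 600.1 and 603 CPM in macrometastatic and 26.9, 30.8 and 30.5 CPM in normal lung libraries (log2 fold change 4.36 (SE 0.044, edgeR adjusted p = 1.59e-25)). Ggt1, for gamma-glutamyltransferase, had 327, 335 and 325 CPM and 21.1, 17.7 and 19.7 CPM. Stfa3, a cysteine protease inhibitor gene of the stefin A cluster, whose members are alike in sequence, had 479, 445 and 498 CPM and 27.2, 28.8 and 23.8 CPM. All 3 were over 10-fold higher in each macrometastatic library than in each normal lung library, and in the Ly6Glow libraries they stood at 556, 372 and 512 CPM. Among decreases, Cbr2, for a carbonyl reductase abundant in lung epithelium, had 5.23, 4.96 and 3.96 CPM in macrometastatic and 127, 114 and 127 CPM in normal lung libraries. Glycam1, for a mucin-like ligand of L-selectin, had 2.34, 1.42 and 1.67 CPM and 53.9, 50.8 and 48.6 CPM. Megf6 fell by 4.84. Changes were also ranked among called genes with groups that did not overlap and a mean of 10 CPM or more where higher. Of the 100 largest increases among them 16 were in neutrophil lists, 5 in other leukocyte lists and none in structural lists. Of the 100 largest decreases 1, 3 and 15 were. The neutrophil, other leukocyte and structural lists held 120, 128 and 118 of the 14108 tested genes.

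The Ly6Glow libraries, sorted from lungs at the same stage, gave a reference from metastatic lung outside the Ly6Ghigh gate. Between Ly6Glow and Ly6Ghigh libraries of macrometastatic lung, 9.29% of tested genes were called higher and 15.9% lower in Ly6Glow, and the 2 comparisons share the Ly6Ghigh libraries. Of the 118 structural genes, 5 (4.24%) were called higher, 7 (5.93%) lower and 106 neither. Structural genes summed to 1483 to 1492 CPM in Ly6Glow libraries, where all tested genes summed to 1240000 to 1245000 CPM. Of the 2206 genes over 4-fold lower in macrometastatic than in normal lung Ly6Ghigh libraries, 1893 (85.8%) were called in neither direction between the gates. Of all 14108 tested genes 10548 were called in neither direction. The 2206 genes had low medians, 0.827 CPM in macrometastatic Ly6Ghigh and 0.778 CPM in Ly6Glow libraries, where a call is harder to reach. Of 36 cell cycle genes 33 were called lower in Ly6Glow, of 10 eosinophil genes 9, and of 8 primary granule genes 5. Prtn3 had 8.28, 8.13 and 6.4 CPM there, between the values of normal lung and macrometastatic Ly6Ghigh libraries. Of 22 mature neutrophil genes 13 were called higher in Ly6Glow and none lower, and of 29 interferon-stimulated genes 14 were called higher and 1 lower. Rsad2 had 20.5, 21 and 20 CPM in Ly6Glow libraries, above each macrometastatic Ly6Ghigh library and more than 10-fold below each normal lung library.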

How the data were processed

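RNA from CD45+ Ly6Ghigh and Ly6Glow lung neutrophils was extracted with TRIzol, poly(A)-selected and made into strand-specific dUTP libraries sequenced by BGI. The authors deposited estimated counts of reads per gene, which were not normalized, and FPKM values, which the authors scaled for transcript length and depth. The labels' processing notes name the mouse build mm10 (the same assembly as GRCm38), while the aligner and counter are not given in the sources used here. Whole numbers made up 37.9% of the estimated counts, and the others were rounded for the tests. All 9 count and 9 FPKM columns were used, and 0 columns of per-sample values were left out.

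Groups were taken from sample titles. Of 22064 genes listed by NCBI Gene identifier, 18325 had values and 14108 passed edgeR's filterByExpr. Counts were compared in R 4.3.3 with edgeR 4.0.16 (TMM scaling, the quasi-likelihood F test in a model of all 9 libraries, and Benjamini-Hochberg over all tested genes), with a threshold of 0.05 on the adjusted p, where the study's methods set it on the p-value for DESeq2, and their log2 fold change of 0.58. An exact permutation test of 3 against 3 libraries cannot go below 0.1, so all p-values come from this model. They measure the spread between these libraries, which may be technical. CPM are on TMM-scaled sizes, and SE is the log2 fold change over the square root of F. The code was tested on simulated counts. A fold against a group at 0 was computed against a floor of 3 counts per library, which covers counting error only.

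Of 795 list symbols 787 were found, 782 had values and 749 were tested, and 8 tested symbols belong to more than 1 class. The lists, thresholds and naming rule were chosen with earlier results of these data known, so no list is independent evidence. Named genes were Ly6g, Prtn3, Ms4a3, Elane and Padi4; per list up to 3 called members with the largest change, groups that do not overlap and a mean of 10 CPM or more where higher, plus the most abundant member; and the 10 largest increases and decreases under the same conditions. Others are marked as chosen after their values were seen. Some genes that the rule admits were left out for length. The pan-epithelial member called higher is not reported here. Genes with near-identical copies (Ear, Stfa, Hbb, Ifit3, Hspa1, Lyz and Ly6 families) may share reads. Promoters and positions came from RefSeq on GRCm38.p6. In every promoter count, lists and all genes alike, a gene held a match if any of its listed windows did. Alternatives were DESeq2 1.42.0 and its size factors, upper-quartile scaling, library totals, other filters and thresholds, the 6 libraries alone, limma 3.58.1 on log2(FPKM + 1) or log2(FPKM + 0.1), a replicate block and leaving out each library.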

Additional observations from a re-analysis of the deposited data

How the results depend on the processing

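Of 320 comparisons of a count with its value under an alternative, 301 stayed within 1.5 times, and no gene was called in opposite directions under any alternative run. The count of genes higher in macrometastatic lung (3712) was 1742 with library totals, 1429 with limma on log2(FPKM + 1), 1756 on log2(FPKM + 0.1), 1426 with FPKM of at least 1 in 3 libraries, 5629 with no fold threshold and 1900 with a threshold of 1, while the count of lower genes (5162) stayed within 1.5 times. Higher genes were 41.8% of calls with TMM, 32.4% with upper-quartile scaling, 20.3% with library totals and 21.8% on log2(FPKM + 1). Scaling thus sets the split between directions, and the primary and secondary granule, structural, interferon and clock lists kept the sign of their medians under every scaling run. Requiring at least 10 counts in every library left 4 primary granule and 3 eosinophil genes called higher, since the near-absent members drop out, and FPKM of at least 1 left 4 eosinophil genes. For Ly6Glow over Ly6Ghigh, the counts of higher genes were 570, 320, 510, 320, 3686 and 342 under the same 6 alternatives, and those of lower genes 3730 with library totals, 3578 on log2(FPKM + 0.1), 4182 without a threshold and 963 with a threshold of 1. Leaving out each library gave 3671 to 3722 higher and 5102 to 5138 lower genes. With a replicate block 3706 genes were higher and 5150 lower; the numbers do not pair libraries (deviations of same-numbered libraries of these groups correlated by -0.040 to 0.077), and the block moved no count of calls by over 1.5 times. Of 3407 log2 fold changes of single genes under an alternative, 42 had the other sign, in 9 genes that were not called. With the same sign, 76 were called where the main fit did not call, 12 of them with library totals. A further 46 were not called where the main fit called. The sign turned negative with library totals for Atp5b (-0.36), Hopx (-0.25), Hspa5 (-0.45), Junb (-0.13), Mcm4 (-0.074), Per1 (-0.31), Per2 (-0.41) and Psmd2 (-0.18). It did so on log2(FPKM + 1), with or without the FPKM filter, for Atp5b (-0.36), Hopx (-0.20), Hspa5 (-0.45), Junb (-0.13), Mcm4 (-0.066), Per1 (-0.30), Per2 (-0.39) and Psmd2 (-0.18). It did so on log2(FPKM + 0.1) for Atp5b (-0.36), Hopx (-0.20), Hspa5 (-0.45), Junb (-0.13), Mcm4 (-0.072), Per1 (-0.31), Per2 (-0.41) and Psmd2 (-0.18). It did so with upper-quartile scaling for Atp5b (-0.087), Hspa5 (-0.18), Per1 (-0.040) and Per2 (-0.14). It did so with at least 10 counts in every library for Atp5b (-0.030), Hspa5 (-0.12) and Per2 (-0.083). Leaving out each library gave Hspa5 -0.0032 to 0.036 and Itga2b (-0.051 with all libraries) -0.15 to 0.027. Depth limits genes under about 1 CPM, where a few reads set the level.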
